A study of Mus musculus with 4 samples.

Results

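Collagen genes were described in mammary tissue of mice with and without miR-21. A gene belonged to the set if its name in the deposited expression table consisted of Col, a type number, the letter a and a chain number, and a gene with several rows was represented by the row with the highest mean value. This gave 43 genes of 26 collagen types among 22479 gene names. RNA-Seq had been done on mammary glands from 2 *miR-21+/+* and 2 *miR-21-/-* mice, which the labels describe as 2 months old and of the mixed strain 129SV::FVB/N::C57BL/6. The labels give the genotype of the animal and name no Cre or cell type to which the loss is limited. The RNA came from whole glands, in which ducts lie within a fat pad with connective tissue, vessels and lymph nodes. The level is given in FPKM (fragments scaled by transcript length and by the number mapped in the library), which allows genes of different length to be compared. The authors deposited a single FPKM value per genotype that combines its 2 mice, so the spread between mice is not visible, no difference below has a replicate check, and no test was run. The number of reads behind the values is unknown. A fold change is the plain ratio of the FPKM values, given as log2 of *miR-21-/-* over *miR-21+/+*.

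Collagens are the main structural proteins of the extracellular matrix, built from chains with long runs of glycine-led repeats that wind around each other into a rope-like helix. Fibrillar collagens assemble into the tension-bearing fibers around the ducts and in the fat pad and are made largely by fibroblasts. Type IV collagens form the sheet-like network of basement membranes under epithelium, around fat cells, muscle fibers and vessels. Other classes decorate fibrils, form beaded filaments, anchor basement membranes to the fibers beneath, or cross the cell membrane.

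Since miR-21 is the molecule missing from the *miR-21-/-* mice, the collagen mRNAs were searched for matches to its seed, the bases of a microRNA that pair with the 3′ UTR of its targets. A match to bases 2 to 8 of miR-21 reads ATAAGCT on the transcript strand, and only that strand was searched. It was found in 1 of the 43 collagens, *Col12a1*, which is 3.23% of the 31 collagens above 1 FPKM, against 6.10% of all 12835 annotated 3′ UTRs of genes above 1 FPKM. The mature microRNA is shown with its seed in capitals (RefSeq, GRCm38.p6), followed by the *Col12a1* site with the matching bases in capitals (mm9, chr9:79448678-79448699, minus strand, read in the direction of transcription).
miR-21: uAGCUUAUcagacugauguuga
Col12a1 site: gaaggaggcgcctaATAAGCTa
*Col12a1*, a collagen on the surface of fibrils, was at 5.02 FPKM in *miR-21+/+* against 4.11 FPKM in *miR-21-/-* glands (log2 −0.29). Cuffdiff, the authors' comparison program, reported a failed test for its row. Of all 783 genes above 1 FPKM with the match, 397 were lower and 386 higher, with a median of −0.003. Of the 12052 genes without it, 6794 were lower and 5258 higher, with a median of −0.029. An effect of miR-21 on *Col12a1* was not tested.

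Of the 43 collagens, 31 had a mean above 1 FPKM, among them *Col20a1*, whose row is merged with another gene. The means of the others were at or under it. Their values ranged down to 0.0229 FPKM in *miR-21+/+* for *Col10a1* and 0.0201 FPKM in *miR-21-/-* glands for *Col19a1*. Among the 31, 4 were at least 1.5-fold lower in *miR-21-/-* glands and 6 at least 1.5-fold higher. Over all 13060 named loci above 1 FPKM, 5.75% were at least 1.5-fold lower and 4.98% at least 1.5-fold higher. The 4 lower genes were *Col6a6*, *Col27a1*, *Col18a1* and *Col5a2*. Cuffdiff marked the rows of the first 3 as failed tests, and among rows without a failed test only *Col5a2* stayed in this count, where 5.88% of such named loci were lower and 5.21% higher by this limit. The 6 higher genes were *Col9a3*, *Col9a2*, *Col4a6*, *Col9a1*, *Col7a1* and *Col4a5*, none of them from a failed row, and *Col9a2*, *Col9a3* and *Col4a6* were more than 2-fold higher, as were 1.7% of all named loci. None was more than 2-fold lower (2.13% of all). At a smaller limit of 0.32 on the log2 scale, 7 collagens were lower and 8 higher, beside 13.6% and 10.5% of all named loci. The median over the 31 collagens was −0.07, beside −0.03 over all named loci.

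**Figure D1:**
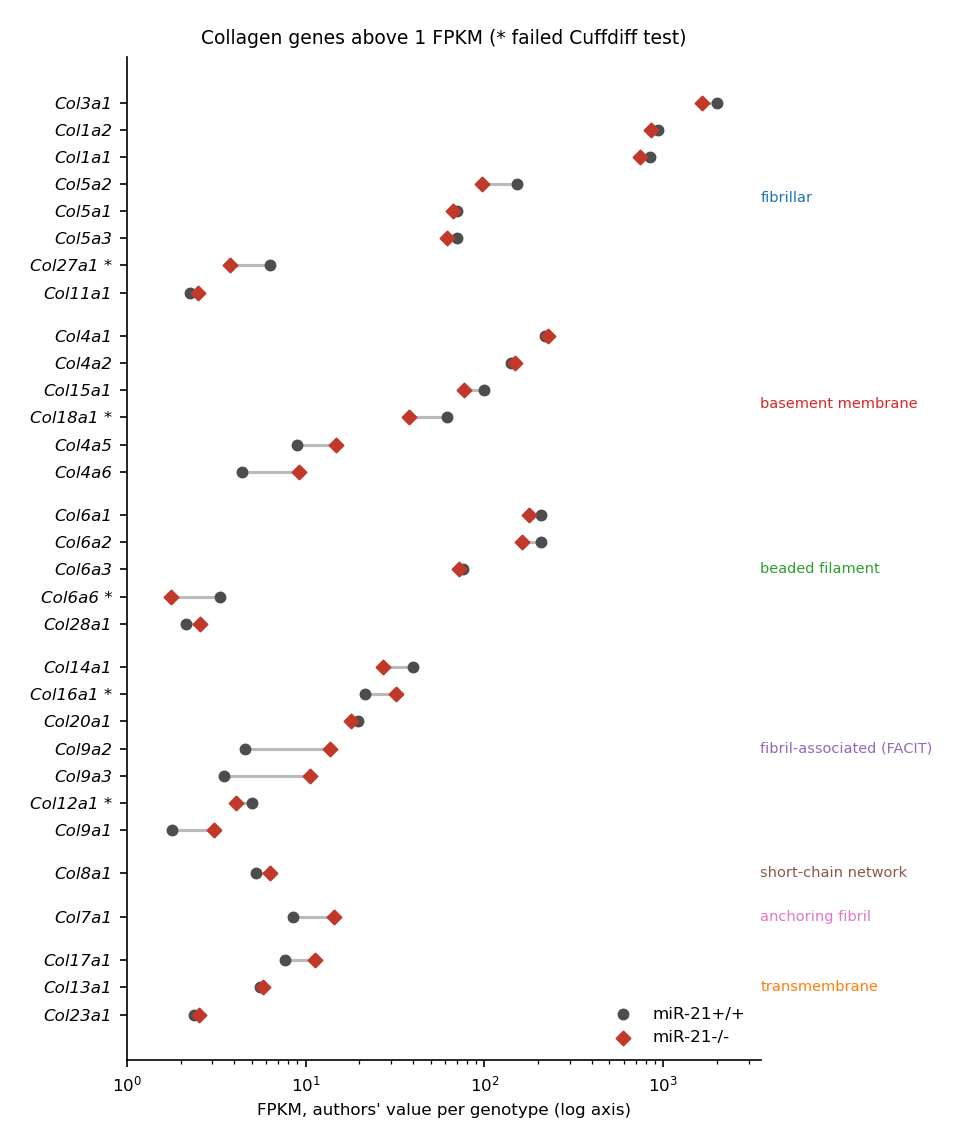
FPKM of the 31 collagen genes above 1 FPKM (log axis), grouped by class, with a gray circle for the authors' *miR-21+/+* value, a red diamond for their *miR-21-/-* value and a line joining both. *Col3a1*, *Col1a2* and *Col1a1* lie highest and a little to the left in *miR-21-/-* glands, whereas *Col4a5*, *Col4a6* and the 3 type IX genes lie low and to the right. An asterisk marks a failed Cuffdiff test.

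Fibrillar collagens were the most abundant. *Col3a1*, the chain of type III collagen, had 1999 FPKM in *miR-21+/+* against 1654 FPKM in *miR-21-/-* glands, was 1.21-fold lower, and ranked 7 by mean FPKM among the named loci of the table. *Col1a2* went from 933 to 852 FPKM (log2 −0.13) and *Col1a1* from 846 to 745 FPKM (log2 −0.18). These genes encode the chains of type I collagen, the bulk of most connective tissue. In RNA from whole glands, fewer cells of a type and less RNA per cell cannot be told apart. Types I and III together made up most of the collagen signal in both genotypes. Type III held 38.3% of the summed collagen FPKM in *miR-21+/+* against 36.4% in *miR-21-/-* glands, and type I held 34.1% and 35.1%. The sum for these shares leaves out *Col20a1*, whose row is merged with another gene.

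Type V collagen co-assembles with type I and limits the width of its fibrils. Its chain *Col5a2* was at 152 FPKM in *miR-21+/+* against 97.3 FPKM in *miR-21-/-* glands (log2 −0.64, 1.56-fold lower). The partner chains moved less, with *Col5a1* at 70.0 and 66.7 FPKM (log2 −0.07) and *Col5a3* at 70.5 and 62.1 FPKM (log2 −0.18). With equal sums over rows with a gene name, *Col5a1* turned to 0.03. The FPKM ratio of *Col5a1* to *Col5a2* was therefore 0.461 in *miR-21+/+* against 0.685 in *miR-21-/-* glands. *Col27a1*, a fibrillar collagen known from cartilage, was at 6.31 and 3.79 FPKM (log2 −0.73, failed test). *Col11a1*, which has a role like that of type V in cartilage, was at 2.25 and 2.50 FPKM and was the only fibrillar gene above 1 FPKM that was not lower.

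Of 11 fibrillar genes, 8 were above 1 FPKM and 7 of these were lower in *miR-21-/-* glands (*Col5a1* among them, which turned higher with equal sums over rows with a gene name), where 55.7% of all named loci were lower. Their median log2 fold change was −0.18, with a range from −0.73 to 0.15. The summed fibrillar FPKM was 4080 in *miR-21+/+* against 3484 in *miR-21-/-* glands (log2 −0.23). *Col11a2*, *Col24a1* and *Col2a1* stayed under 1 FPKM in both genotypes. *Col2a1*, the defining collagen of cartilage, was at 0.266 and 0.158 FPKM.

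Basement membrane collagens did not move as a group. *Col4a1* and *Col4a2*, the chains found in nearly every basement membrane, had 219 and 141 FPKM in *miR-21+/+* against 226 and 149 FPKM in *miR-21-/-* glands, with log2 fold changes of 0.04 and 0.08. *Col4a5* was higher in *miR-21-/-* glands, at 14.8 FPKM against 9.005 FPKM (log2 0.72, 1.64-fold), and *Col4a6* was at 9.23 FPKM against 4.43 FPKM (log2 1.06, 2.08-fold). These chains form a more restricted network, known from the basement membranes of skin, smooth muscle and several glands. *Col4a1* was 24.3 times as abundant as *Col4a5* in *miR-21+/+* against 15.3 times in *miR-21-/-* glands. *Col4a3* and *Col4a4*, the chains typical of the kidney glomerulus, were under 1 FPKM in both genotypes. The table holds a pair of rows for *Col4a3* with opposite directions, at 0.667 and 0.494 FPKM in the row used here and at 0.156 and 0.352 FPKM in the other, so its direction is uncertain.

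Against the type IV chains, the other basement membrane collagens were lower. *Col15a1*, which links basement membranes to the surrounding fibrils, was at 99.0 FPKM in *miR-21+/+* against 76.6 FPKM in *miR-21-/-* glands (log2 −0.37). *Col18a1*, a heparan sulfate collagen of epithelial and vessel basement membranes and the source of endostatin, was at 61.8 and 37.9 FPKM (log2 −0.70, 1.63-fold lower, failed test). Its row spans 404720 bases against 114371 for the annotated gene, so the value may hold reads from outside the gene. Over the 6 genes of this class above 1 FPKM, 4 were higher and 2 lower, with a median of 0.06. With type IV alone the median of the 4 expressed chains was 0.40, and all 4 were higher, where 44.3% of all named loci were, though *Col4a1* and *Col4a2* turned lower when both columns were scaled to equal sums over all rows of the table.

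The difference between the medians of the fibrillar and the basement membrane class was −0.25 on the log2 scale, and −0.58 when type IV chains stood for basement membranes. The ranges of the classes overlapped, from −0.73 to 0.15 for fibrillar and from −0.70 to 1.06 for basement membrane genes. The basement membrane sum, which also holds *Col15a1* and *Col18a1*, was 535 FPKM in *miR-21+/+* against 515 FPKM in *miR-21-/-* glands (log2 −0.06, which turned to 0.04 with equal sums over rows with a gene name). The fibrillar sum was 7.62 times the basement membrane sum in *miR-21+/+* against 6.77 times in *miR-21-/-* glands. Without rows of failed tests, *Col27a1* and *Col18a1* among them, the difference of medians was −0.27 and the basement membrane sum was 0.01 higher in *miR-21-/-* glands on the log2 scale.

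**Figure D2:**
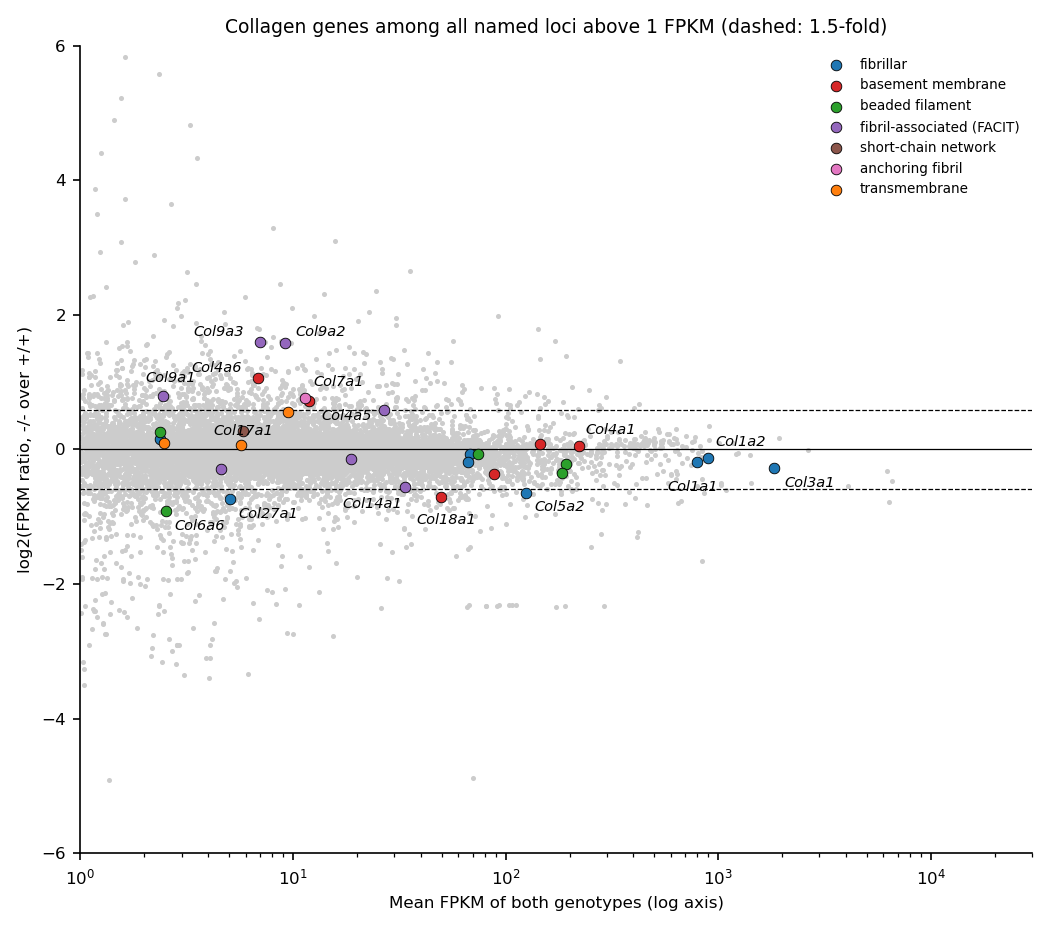
Log2 FPKM ratio of *miR-21-/-* over *miR-21+/+* against the mean FPKM of both genotypes (log axis) for all 13060 named loci above 1 FPKM (gray) and for the 31 collagens (colored by class). The dashed lines mark 1.5-fold. *Col9a2*, *Col9a3* and *Col4a6* stand above the upper line, and the abundant collagens *Col3a1*, *Col1a1* and *Col1a2* lie slightly below 0.

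The largest fold changes among the 31 collagens were those of *Col9a3* and *Col9a2*, chains of type IX collagen, whose 3 chains form a molecule that sits on the surface of fibrils and is best known from cartilage. *Col9a3* was at 3.49 FPKM in *miR-21+/+* against 10.5 FPKM in *miR-21-/-* glands (log2 1.59, 3.02-fold). *Col9a2* was at 4.57 and 13.7 FPKM (log2 1.59, 3.01-fold). *Col9a1* was lower in level and moved less, from 1.78 to 3.08 FPKM (log2 0.79, 1.73-fold). The ratio of *Col9a2* to *Col9a3* was 1.31 in *miR-21+/+* against 1.30 in *miR-21-/-* glands, whereas that of *Col9a3* to *Col9a1* was 1.96 and 3.42. The 97.5th percentile of the log2 fold change over all named loci was 0.86. Up to 234 bases of the *Col9a3* exons overlap those of a neighboring gene, *Tcfl5*, whose reads could add to its value. The row of *Col9a3* also spans more than the annotated gene, at 44470 against 24400 bases. With a pseudocount of 1, the log2 fold changes were 1.36 for *Col9a3*, 1.40 for *Col9a2* and 0.55 for *Col9a1*, so that *Col9a1* was under 1.5-fold.

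Most of the 8 cartilage and bone markers had a mean under 1 FPKM, and a cartilage source of type IX was not tested. Beside *Col2a1*, *Acan*, the large proteoglycan of cartilage, was at 0.00543 and 0.0147 FPKM, and *Matn3* was at 0.0278 and 0.0169 FPKM. *Lect1*, another cartilage gene, was at 0.578 and 0.825 FPKM. *Matn1* was at 0.0123 FPKM in *miR-21+/+* and listed at 0 in *miR-21-/-* glands. *Sox9*, a transcription factor of cartilage that is also active in glandular epithelium, was the only one of 8 cartilage and bone markers in the table above 1 FPKM, at 8.23 FPKM in *miR-21+/+* against 14.4 FPKM in *miR-21-/-* glands (log2 0.81). The bone protein gene *Ibsp* was listed at 0 in both genotypes.

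Among the other collagens that decorate fibrils, *Col14a1* was at 40.0 FPKM in *miR-21+/+* against 27.2 FPKM in *miR-21-/-* glands (log2 −0.56, 1.47-fold lower). *Col16a1*, found near fibrils and basement membranes, was at 21.5 and 32.2 FPKM (log2 0.58, just under 1.5-fold, failed test). The value listed for *Col20a1* belongs to a row merged with *Arfgap1*, a gene of membrane traffic, and does not measure the collagen by itself. It was 19.6 and 17.8 FPKM. *Col19a1* and *Col22a1* were under 0.05 FPKM in both genotypes. Within the class of fibril-associated collagens, 4 of 7 genes above 1 FPKM were higher and 3 lower, beside 44.3% and 55.7% of all named loci. The 3 lower ones include *Col20a1* with its merged row. The range of this class, from −0.56 to 1.59, was the widest.

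Type VI collagen, which forms beaded filaments close to cells and is abundant in fat tissue, was slightly lower in its 3 main chains, of which *Col6a3* turned to 0.02 with equal sums over rows with a gene name. *Col6a1* was at 206 FPKM in *miR-21+/+* against 177 FPKM in *miR-21-/-* glands (log2 −0.22), *Col6a2* was at 207 and 162 FPKM (log2 −0.35), and *Col6a3* was at 76.0 and 72.2 FPKM (log2 −0.07). The FPKM ratio of *Col6a1* to *Col6a2* stayed near 1, at 0.995 and 1.09. *Col6a6*, a later-described chain, was at 3.32 and 1.76 FPKM (log2 −0.91, 1.88-fold lower, failed test). *Col6a4* and *Col6a5* had means under 1 FPKM and opposite directions, with log2 fold changes of 0.74 and −0.51. *Col28a1*, a related filament collagen known from peripheral nerve, was at 2.15 and 2.58 FPKM.

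Both collagens that tie epithelium to its basement membrane had higher FPKM values in *miR-21-/-* glands, *Col17a1* not so with equal sums over all rows. *Col17a1*, a transmembrane collagen of hemidesmosomes, the junctions of basal epithelial cells, was at 7.68 FPKM in *miR-21+/+* against 11.2 FPKM in *miR-21-/-* glands (log2 0.55, 1.46-fold). *Col7a1*, the anchoring fibril collagen, was at 8.47 and 14.3 FPKM (log2 0.76, 1.69-fold), in a row that merges it with *Mir711* and *Ucn2*. The transmembrane collagens *Col13a1*, at 5.53 and 5.80 FPKM, and *Col23a1*, at 2.39 and 2.55 FPKM, differed by under 0.1 on the log2 scale. *Col8a1*, a short-chain collagen of vessels, was at 5.25 and 6.32 FPKM (log2 0.27).

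**Figure D3:**
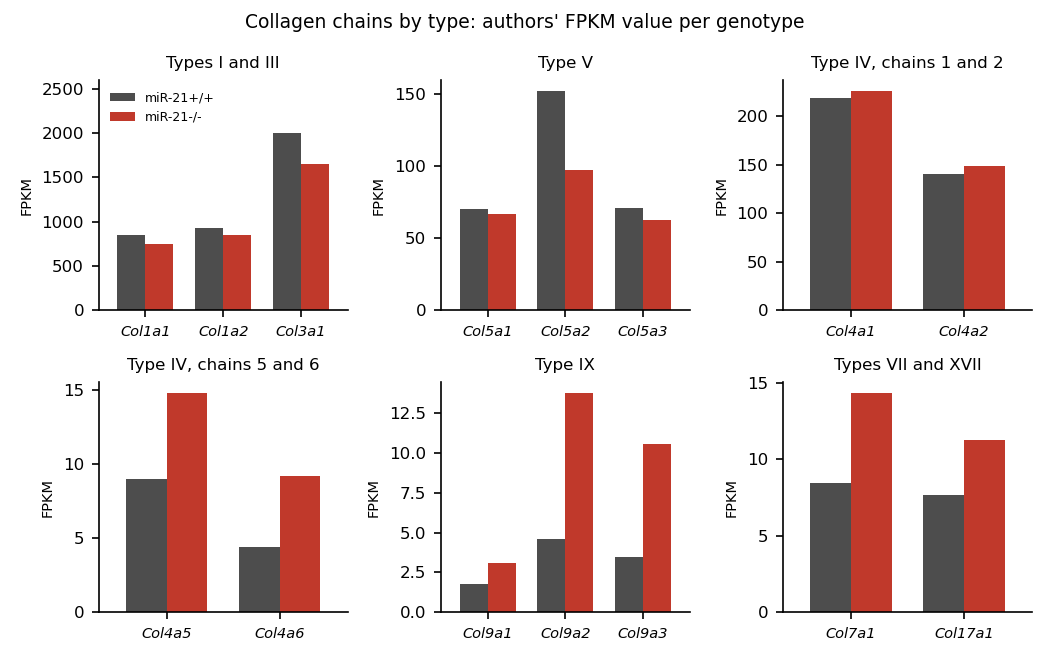
FPKM of collagen chains grouped by type, as bars that start at 0, with the authors' single value for *miR-21+/+* (gray) and *miR-21-/-* (red) glands and no error bars, since no value per mouse was used. *Col5a2* is the only type V chain past 1.5-fold, at 152 against 97.3 FPKM. *Col4a5*, *Col4a6* and the type IX chains are higher in *miR-21-/-* glands, whereas *Col4a1* and *Col4a2* are nearly level.

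Several collagen genes are neighbors in the genome, and their changes were compared within each pair. The type IV genes lie head to head, so that a single stretch of DNA separates or joins their starts. On chromosome 8, the annotated starts of *Col4a1* and *Col4a2* are 21 bases apart, and both genes were nearly level. On chromosome X, those of *Col4a5* and *Col4a6* are 1309 bases apart, and both were higher by 0.72 and 1.06. The starts of *Col4a3* and *Col4a4* on chromosome 1 are 72 bases apart. These genes, both under 1 FPKM, had opposite directions, at −0.43 and 0.14, and the direction of *Col4a3* is uncertain. *Col3a1* and *Col5a2* lie 24614 bases apart on chromosome 1 and end toward each other, with log2 fold changes of −0.27 and −0.64. *Col9a1* and *Col19a1*, with 9151 bases between them, differed in level by far and in direction, at 0.79 and −0.58. *Col6a1* and *Col6a2* on chromosome 10 were both lower, at −0.22 and −0.35. In a run on chromosome 9, *Col6a6* (failed test), *Col6a5* and *Col6a4* were at −0.91, −0.51 and 0.74. The means of *Col6a5* and *Col6a4* were under 1 FPKM.

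A sequence feature that collagens share is the seed match of the miR-29 family, microRNAs known to repress collagen mRNAs. A match to bases 2 to 8 reads TGGTGCT, and 23 of 43 collagens had at least 1 in the 3′ UTR of the transcript with the longest coding sequence. Of the 31 collagens above 1 FPKM, 18 (58.1%) had it, against 12.9% of all genes above 1 FPKM. The median 3′ UTR length was 881 bases in these collagens and 899 bases in all these genes. The match was present in 9 of 11 fibrillar and 7 of 8 basement membrane genes, in 2 of 7 beaded filament, 3 of 9 fibril-associated and 0 of 4 transmembrane genes. Sites of genes described above are shown with the match in capitals. They come from mm9, chrX:138122782-138122803 for the first of 3 sites in *Col4a5*, chrX:137601057-137601078 for *Col4a6* (minus strand), chr8:11199761-11199782 for *Col4a1* (minus strand), chr1:45405813-45405834 for *Col3a1*, chr11:94813838-94813859 for *Col1a1* and chr1:45431810-45431831 for *Col5a2* (minus strand). The microRNA is from RefSeq (GRCm38.p6).
miR-29a: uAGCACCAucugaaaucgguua
Col4a5: actgctcccaccaaTGGTGCTa
Col4a6: tgtttccatccatcTGGTGCTa
Col4a1: ccaccgtcacaacaTGGTGCTa
Col3a1: tcaaaatgtctcaaTGGTGCTa
Col1a1: tgggaaggaatttcTGGTGCTa
Col5a2: ttttcttttaatgaTGGTGCTa
The 6 sites shown are a choice among the matches, and all are followed by an A. Those of *Col4a2*, *Col11a1*, *Col16a1* and *Col27a1* are not, and the abundant *Col1a2* held no match to bases 2 to 8. Of the genes shown, *Col4a5* and *Col4a6* were higher in *miR-21-/-* glands, *Col4a1* was level, and *Col5a2*, *Col3a1* and *Col1a1* were lower. Of the 18 collagens with a match, 9 were lower and 9 higher, with a median of −0.01. Of the 13 without, 7 were lower and 6 higher, with a median of −0.13. Over all genes above 1 FPKM, 871 of 1658 with the match were lower and 787 higher. Without it, 6320 of 11177 were lower and 4857 higher. A part of miR-29 in these differences was not tested. *Col9a2* and *Col9a3* held no match to either microRNA. Poly(A) RNA-Seq does not measure mature miR-29, and a match is a description of the sequence only.

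Enzymes that modify and fold collagen chains stayed near the median of all loci. Of 18 genes above 1 FPKM, 0 were at least 1.5-fold lower and 2 at least 1.5-fold higher, with a median of −0.06, beside 5.75% and 4.98% of all named loci. The chaperone *Serpinh1* was at 289 FPKM in *miR-21+/+* against 278 FPKM in *miR-21-/-* glands, and *P4hb*, a subunit of prolyl 4-hydroxylase, was at 188 and 169 FPKM. The exceptions were *P4ha3*, at 1.41 and 2.48 FPKM (log2 0.82), and *Plod2*, the lysyl hydroxylase that favors stable cross-links, at 12.8 and 20.0 FPKM (log2 0.64). Genes for propeptide cleavage and cross-linking had a median of −0.03 over 12 genes. Of these, *Adamts14*, a procollagen protease, was at 5.63 and 3.42 FPKM (log2 −0.72). The abundant members *Pcolce*, in a merged row, and *Loxl1* were at 77.7 and 68.3 FPKM in *miR-21+/+* compared with 79.0 and 66.4 FPKM in *miR-21-/-* glands.

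Proteins that bind collagen fibrils split. Of 15 genes above 1 FPKM, 10 were above and 5 below their *miR-21+/+* level, with a median of 0.11. Over all named loci 44.3% were above and 55.7% below it. *Fn1* (fibronectin) was at 380 FPKM in *miR-21+/+* against 217 FPKM in *miR-21-/-* glands (log2 −0.81, failed test). *Postn* (periostin) was at 1052 and 668 FPKM (log2 −0.65). *Kera*, a small proteoglycan, was at 4.64 and 2.45 FPKM (log2 −0.92), whereas *Prelp*, of the same protein family, was at 65.7 and 117 FPKM (log2 0.83). *Sparc*, the most abundant of the list, was at 1449 and 1364 FPKM. The receptor list had a median of −0.03 over 8 genes. In it *Itgb1* was at 118 and 116 FPKM, *Ddr2* at 29.4 and 28.6 FPKM, and *Itga2*, an integrin chain of epithelium and platelets, at 1.88 and 2.86 FPKM (log2 0.61). Of 5 collagen-cleaving proteases above 1 FPKM, *Mmp14* was 137 and 87.9 FPKM (log2 −0.64) and *Mmp2*, which it activates, was 162 and 229 FPKM (log2 0.50). The median of these was 0.28.

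Among 15 partners of type IV collagen in basement membranes, 9 were higher and 6 lower, with a median of 0.16, and 3 laminin genes were at least 1.5-fold higher. Over all named loci 44.3% were higher and 4.98% at least 1.5-fold higher. *Lamb3* and *Lama3*, chains of the laminin of epithelial anchoring complexes, were at 5.85 and 4.15 FPKM in *miR-21+/+* compared with 13.1 and 6.84 FPKM in *miR-21-/-* glands (log2 1.16 and 0.72). *Lama5* was at 12.01 and 19.2 FPKM (log2 0.68). The most abundant partners, *Nid1* and *Lamb1*, were at 197 and 92.3 FPKM in *miR-21+/+* compared with 176 and 76.2 FPKM in *miR-21-/-* glands.

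**Figure D4:**
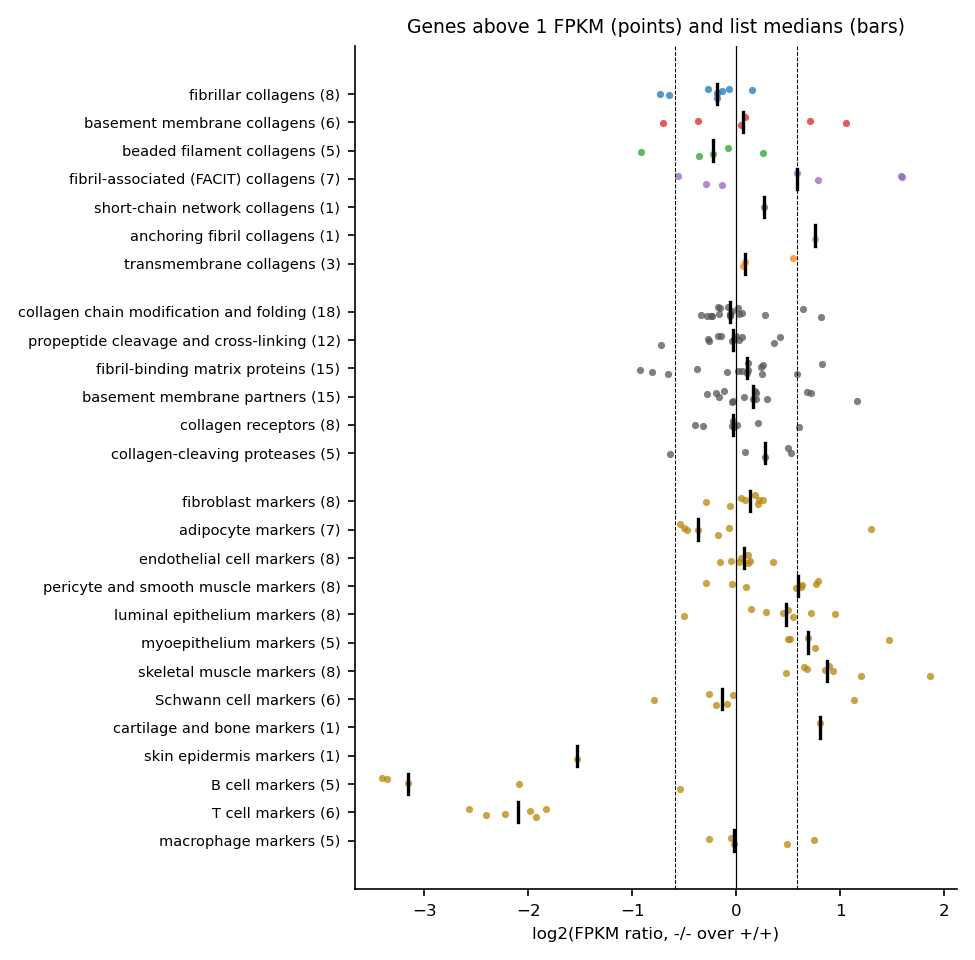
Log2 FPKM ratio of *miR-21-/-* over *miR-21+/+* for each gene above 1 FPKM (points) and the median (black bars) in the collagen classes (top), lists of collagen-related genes (middle) and cell type markers (bottom), with the number of genes in parentheses and dashed lines at 1.5-fold. Fibrillar collagens center left of 0, at −0.18, while markers of myoepithelium, luminal epithelium, pericytes with smooth muscle, and skeletal muscle center right of it, at 0.70, 0.48, 0.60 and 0.87.

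Markers of cell types that make collagens were also compared between the genotypes. Of 8 fibroblast markers, 6 had a higher and 2 a lower level without miR-21 (median 0.14). Over all named loci above 1 FPKM, 44.3% were higher and 55.7% lower, shares that apply to each count in this paragraph. Among the fibroblast markers *Dpt* was at 327 and 338 FPKM and *Clec3b* at 183 and 213 FPKM. The fibroblast markers summed to 828 FPKM in *miR-21+/+* against 894 FPKM in *miR-21-/-* glands. The lowest log2 fold change of this list was −0.29 (*Pdgfrb*) and the highest 0.26 (*Dpep1*). Of 7 adipocyte markers, 6 were lower, with a median of −0.36. Their sum was 11322 and 8345 FPKM, led by *Fabp4* at 7677 and 5523 FPKM and *Adipoq* at 1207 and 853 FPKM. *Lep*, the gene of the fat cell hormone leptin, was the only one past 1.5-fold and went the other way, at 27.7 and 67.9 FPKM (log2 1.29). Of 8 endothelial markers, 6 were higher (median 0.08, *Cdh5* at 43.8 and 47.3 FPKM and *Pecam1* at 39.7 and 43.7 FPKM).

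All 5 myoepithelial markers were higher, with a median of 0.70, and so were 7 of 8 luminal markers, with a median of 0.48. Of the 31 collagens above 1 FPKM, 15 were higher and 16 lower. Over all named loci above 1 FPKM, 44.3% were higher, a share that applies to each count in this paragraph. The myoepithelial sum was 87.8 FPKM in *miR-21+/+* against 156 FPKM in *miR-21-/-* glands, with *Krt5* at 29.8 and 42.7 FPKM and *Oxtr* at 17.5 and 48.7 FPKM. The luminal sum was 653 and 878 FPKM, with *Krt19* at 223 and 247 FPKM and *Krt18* at 148 and 216 FPKM. *Esr1* was the luminal marker that was lower (log2 −0.50, failed test). Of 8 pericyte and smooth muscle markers, 6 were higher (median 0.60, *Acta2* at 222 and 341 FPKM and *Tagln* at 90.1 and 156 FPKM). In the same list *Rgs5*, *Cspg4* and *Notch3*, which mark pericytes, had log2 fold changes of −0.04, −0.29 and 0.10. All 8 skeletal muscle markers were higher (median 0.87), with *Acta1* at 328 and 526 FPKM and *Ckm* at 214 and 338 FPKM. The part of these cell types in the collagen differences was not tested.

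Other cells of the gland were compared in the same way. All 5 B cell markers and all 6 T cell markers were lower, with medians of −3.16 and −2.10, where 55.7% of all named loci were lower. *Cd79a*, in a row merged with another gene, was at 70.3 FPKM in *miR-21+/+* against 48.3 FPKM in *miR-21-/-* glands. *Cd79b* was at 12.3 FPKM in *miR-21+/+* against 2.88 FPKM in *miR-21-/-* glands. *Lck* and *Cd3g* were at 8.41 and 7.70 FPKM in *miR-21+/+* compared with 2.13 and 1.65 FPKM in *miR-21-/-* glands. The median of 5 macrophage markers was −0.02, with *Cd68* at 255 and 252 FPKM and *Csf1r* at 53.9 and 52.2 FPKM. Schwann cell markers had a median of −0.14 over 6 genes, with *Pmp22* at 137 and 115 FPKM. The members of this list past 1.5-fold had opposite directions, *Sox10* at 16.4 and 36.1 FPKM (log2 1.13) and *Egr2* at 12.8 and 7.41 FPKM (log2 −0.79). Of 5 epidermis markers, only *Krt10* exceeded 1 FPKM on average, at 5.70 and 1.98 FPKM, followed by *Lor* at 1.16 and 0.115 FPKM.

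The locus of *Mir21* and its host gene *Vmp1* is a single row of the table, at 42.5 FPKM in *miR-21+/+* against 68.2 FPKM in *miR-21-/-* glands. It is the long host transcript and not the microRNA, so it does not check the genotype labels. FPKM summed to 380567 and 355385 over rows with a gene name but to 759295 and 1175603 over all rows, and scaling both columns to equal sums over all rows would lower every log2 fold change by 0.63. Under that scaling *Col4a1*, *Col4a2* and *Col17a1* turned to −0.59, −0.55 and −0.08, *Col4a5* and *Col4a6* stayed higher by 0.08 and 0.43, and *Col9a2* and *Col9a3* by 0.96 each. The difference between fibrillar and basement membrane medians does not depend on scaling.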

How the data were processed

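Poly(A) RNA from mammary glands was sequenced on an Illumina HiSeq. The submitters' processing notes name CASAVA, TopHat and mm9, and the authors deposited a Cuffdiff table of FPKM values, with a single value per genotype that combines 2 mice. Program versions, gene annotation and normalization options are not given in the sources used here. The authors' columns of fold change, test statistic, p-value and q-value hold their own comparison and were not used. The deposited status mark, a text label other than a measurement, was read only to find rows with a failed test.

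The members and the gene lists were chosen with earlier results of these data known. Of 30506 rows, 22483 had a gene name, and each name was represented by its row with the highest mean. Levels were compared above a mean of 1 FPKM, and 1.5-fold was the limit for counts. The main ratios had no pseudocount. Named genes were all collagens (those under 1 FPKM mostly by range), pathway list members past 1.5-fold and the 2 most abundant members of each list. *Esr1*, *Lep*, *Sox10*, *Egr2*, *Pdgfrb*, *Dpep1*, *Rgs5*, *Cspg4*, *Notch3*, *Acan*, *Matn1*, *Matn3* and *Ibsp* were added after their values were seen, and 1 gene that the rule names is not reported here. Seed matches were searched in 3′ UTRs of the GENCODE vM1 annotation (mm9), in the transcript with the longest coding sequence, and all 43 collagens had one. Positions were read against the mm9 genome. Calculations used Python 3.11.15, numpy 2.4.6 and pandas 2.3.3, with figures from matplotlib 3.10.9, and were checked on simulated data. The depth of the libraries is unknown, so no counting interval was given. Alternatives were other pseudocounts, FPKM minimums, fold limits, scalings and class definitions, rows of 1 gene only, and, chosen after seeing the data, no failed rows.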

Additional observations from a re-analysis of the deposited data

How the results depend on the processing

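No paired analysis was possible because the 2 mice of a genotype share 1 FPKM column, and fits without each replicate were not run for the same reason. A median or a ratio of sums was said to move when it changed by more than 0.208, the spread of log2 fold changes over all named loci estimated from their interquartile range. Equal sums over all loci moved the fibrillar median to −0.81, the basement membrane median to −0.57 and the ratios of sums to −0.86 and −0.69, with 17 collagens at least 1.5-fold lower and 2 higher. With type IV chains alone the basement membrane median was 0.40 and the difference of medians −0.58. At a limit of 0.32 on the log2 scale, 7 collagens were lower, and at 2-fold 0 were lower and 3 higher. Without failed rows, 1 was lower. The other settings, namely both pseudocounts, 3 other minimums, equal sums over named loci, median centring, rows of a single gene, *Col7a1* as a basement membrane gene and fewer fibrillar types, moved no median or ratio of sums by more than that spread. Under those of them that apply to the counts, 3 to 5 collagens were at least 1.5-fold lower and 5 to 8 higher, within 1.5 times of the 4 and 6 reported. Equal sums over named loci turned *Col5a1* and *Col6a3*, at −0.07 each, to 0.03 and 0.02, and the basement membrane sum to 0.04. Precision of low FPKM values is unknown without depth.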
